A study of Danio rerio with 2 samples.

Results

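The Hox genes were taken as every gene whose symbol is hox followed by a letter from a to d, a paralog number and a copy letter, which gave 49 of the 36351 genes measured. The values came from zebrafish embryos carrying the kdrl:mCherry transgene, in which a promoter of the Vegf receptor gene kdrl drives a red fluorescent protein in the endothelium. Cells positive for mCherry were sorted at 24 hpf from WT embryos and from akt mutant embryos, which carry premature stops in akt1, akt2, akt3a and akt3b; adult fish of the line were homozygous for the akt1, akt3a and akt3b alleles and heterozygous for akt2, and the cross and genotyping behind the sorted embryos are not given in the sources used here. Each genotype was 1 droplet library of pooled embryos, so there was no replicate: every interval given here is a 95% interval for counting error alone, and genotype and library cannot be told apart. No treatment was given to either group. The libraries held 16400 and 9464 cells, with a median of 5930.5 and 8247 UMIs (unique molecules) per cell, and 225 cell barcodes occurred in both.

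Hox genes encode homeodomain transcription factors that give cells their position along the head to tail axis. They lie in clusters A to D, numbered by paralog group, and their order along a cluster matches their order along the body: low numbers are expressed from the hindbrain backwards, high numbers in the trunk and tail. An additional genome duplication left zebrafish with a and b copies of several clusters. Hox proteins bind DNA with Pbx and Meis partners, and Cdx factors and retinoic acid are inputs that set their domains. Of the 49 genes, 12 were in HoxA, 15 in HoxB, 15 in HoxC and 7 in HoxD. Here 10 genes of paralog groups 1 to 3 are called anterior, 16 of groups 4 to 8 central and 23 of groups 9 to 13 posterior.

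All 49 genes had at least 1 UMI in each library, with 78377 Hox UMIs among 220496201 in all. Levels are given in CPM, a gene's UMIs among every 1000000 UMIs of a cell class in one library. These come from tags at the 3′ end, so a level was not divided by gene length. In the RefSeq annotation, whose build may differ from that of the counts, 18 of the 49 overlap another member. Among them are hoxb3a with hoxb4a, hoxb5a and hoxb6a, hoxc3a with hoxc4a, hoxc5a, hoxc6a, hoxc8a and hoxc9a, and hoxb1b with hoxb5b and hoxb6b. How counting split such reads is uncertain, and sums over paralog groups carry that uncertainty. Fewer than 50 UMIs over all cells were found for 6 genes: hoxc12a, hoxa4a, hoxb1a, hoxb4a, hoxb13a and hoxa5a.

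Cells were grouped by clustering with the Hox genes taken out of the variable genes, so that no cluster was drawn by them. Of 21 clusters, 8 were endothelial by kdrl and cdh5 (vascular endothelial cadherin), with 8786 WT and 6489 mutant cells. The sort also held blood, neural, epithelial, muscle and other cells, which gave a comparison outside the endothelium. Erythroid-like cells (cluster 4), which should hold little Hox transcript, gave a reference level of 40.4 CPM in WT and 32.4 CPM in the mutant for the Hox sum. Their median depth was 20235.5 and 29228.5 UMIs, above that of every other cluster, so that the same free RNA per droplet would give a lower CPM in them than in shallower cells. In endothelial cells akt2 was lower in the mutant, at 13.2 CPM in WT and 9.04 CPM in the mutant (-0.55 on the log2 scale). Akt3b was at 9.09 and 8.25 CPM (-0.14) and akt3a at 0.662 and 0.759 CPM (0.20), which did not bear out the genotype label at the RNA level. Akt1, with 2 UMIs and 1 UMI, was too low to compare. In whole embryos at a later stage, the paper reports lower mRNA of each akt gene by qRT-PCR and lower Akt activity by western blot. Tags at the 3′ end do not read the stops themselves.

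The endothelium fell into a part with high and a part with low Hox levels. The vein-like cluster 1, in which all 6 venous markers such as stab2, dab2 and lyve1b were raised, had a Hox sum of 1019 CPM in WT and 961 CPM in the mutant. Its counterpart with cell cycle genes, cluster 12, had 1289 and 1162 CPM. The artery-like cluster 2, led by ndnf, had 802 and 807 CPM. The low-depth endothelial cluster 7 had 533 and 552 CPM. The other endothelial clusters were far lower: the foxl2b-led cluster 0 at 76.4 and 50.8 CPM, the cycling foxl2b-led cluster 10 at 71.6 and 58.9 CPM, the artery-like cluster 5, led by the chemokine receptor gene cxcr4a, at 78.8 and 50.5 CPM, and the endocardium-like cluster 8 at 81.5 and 52.8 CPM. In WT the intervals of these 4 overlapped one another. The high clusters took 54.1% of the endothelial cells in WT (4753 cells) and 54.1% in the mutant (3509 cells). Their make-up differed, however. Clusters 1, 2 and 12 held 2070, 1833 and 315 cells in WT and 1320, 1223 and 282 in the mutant. The low-depth cluster 7 held 535 WT cells but 684 mutant cells, although the mutant library was the smaller. An artery-like cluster thus lay on each side of the division. Vein cells taken by UMIs of stab2, dab2 and lyve1b, described below, lay on both sides too. Of these, 35.2% in WT and 35.9% in the mutant were in cluster 0, and 46.2% and 37.1% in cluster 1.

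**Figure D1:**
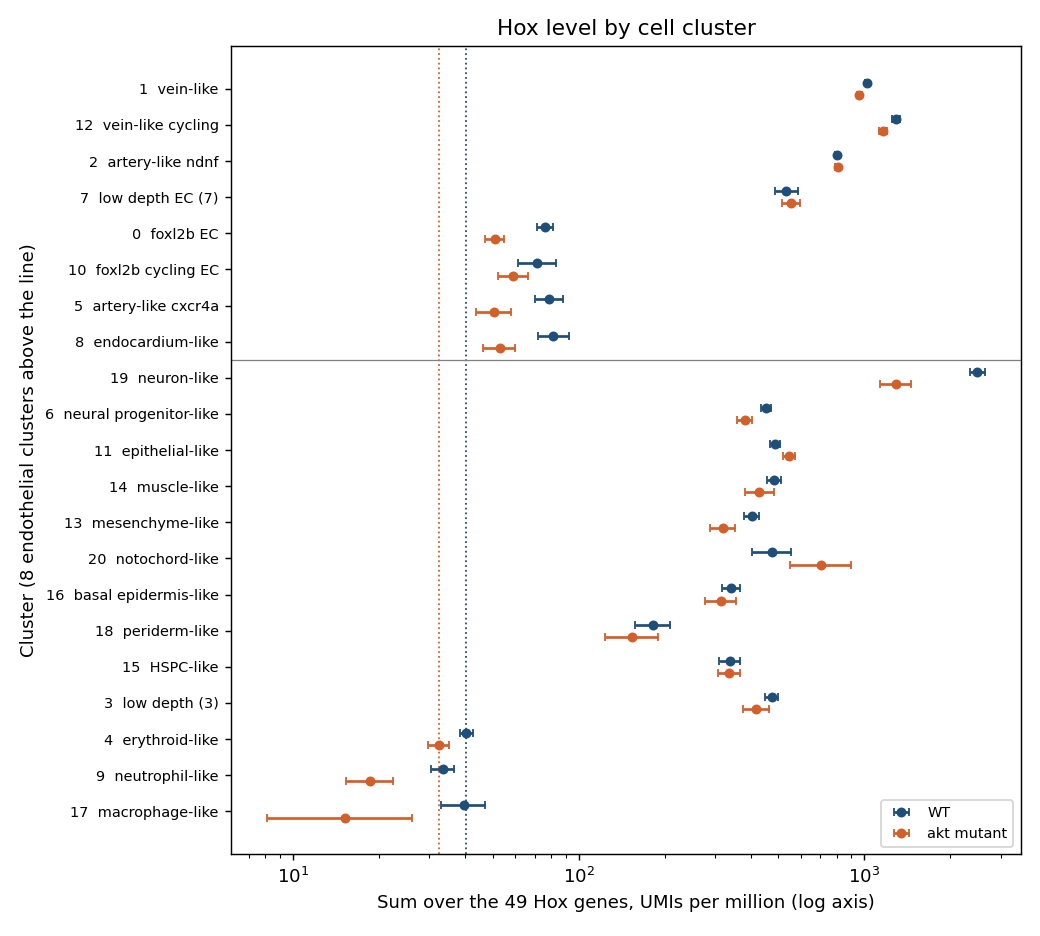
Sum of the 49 Hox genes in CPM (log axis) in each of the 21 clusters, with WT in blue and akt mutant in orange. Bars are exact Poisson 95% intervals for counting error, and dotted lines mark the erythroid-like level of each library; clusters 1, 12, 2 and 7 sit well above it, while clusters 0, 10, 5 and 8 sit between 50.5 and 81.5 CPM.

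The low clusters were not uniform. Against the erythroid-like level, the Hox sum of cluster 0 was 1.89-fold (1.74 to 2.05) in WT and 1.57-fold (1.40 to 1.76) in the mutant. The anterior sum was 4.43-fold the erythroid-like level in WT and 3.56-fold in the mutant and the central sum 1.98-fold and 2.24-fold, while the posterior sum was below it, at 0.716-fold and 0.662-fold. Per cell, however, cluster 0 held fewer Hox UMIs than the erythroid-like cells (a mean of 0.421 against 0.757 in WT and 0.440 against 0.835 in the mutant), at a median depth of 5056 and 8362.5 UMIs. The mean paralog number, weighted by UMIs, was 5.14 in WT and 5.56 in the mutant in cluster 0, against 7.59 and 8.07 in the erythroid-like cells. The part of free RNA in the folds of cluster 0 was not tested. Cluster 5 had the same order, at 3.70-fold and 3.33-fold for the anterior sum, 2.14-fold and 2.59-fold for the central sum and 1.08-fold and 0.601-fold for the posterior sum. The highest genes of cluster 0 were hoxb3a (17.6 CPM in WT and 8.94 in the mutant), hoxa3a (10.8 and 6.53 CPM) and hoxb6a (4.27 and 3.19 CPM). Hoxb3a and hoxa3a belong to the paralog group 3 genes of the posterior hindbrain and pharyngeal region. In the endocardium-like cluster the order differed: its anterior sum was 1.79-fold and 1.47-fold, its central sum 2.04-fold and 2.52-fold and its posterior sum 2.11-fold and 1.39-fold the erythroid-like level, and its highest gene over both libraries, hoxa11b, was also the highest of the erythroid-like cells.

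Per cell, the high Hox levels of clusters 1 and 2 were spread over most of their cells and did not come from a few. With every cell thinned to 1000 UMIs, a Hox UMI was found in 60.3% of WT and 59.2% of mutant cells of cluster 1, and in 52.0% and 47.8% of cluster 2, against 5.03% and 5.54% of erythroid-like cells. Unthinned, the shares were 95.2% and 94.1% in cluster 1 and 90.6% and 89.5% in cluster 2, and 36.0% and 40.7% in the erythroid-like cells, whose median depth in WT was 20235.5 UMIs against 6745 in cluster 1. In cluster 0 the thinned share was 6.58% and 4.98%, near the erythroid-like background. Thinned to 4000 UMIs, cells of cluster 1 held a mean of 4.26 Hox UMIs in WT and 3.93 in the mutant, with no Hox UMI in 6.82% and 9.80% of cells, whereas 80.4% and 86.0% of cluster 0 cells held none. In cluster 12 the share of cells with none at this depth was 2.36% and 4.43%.

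**Figure D2:**
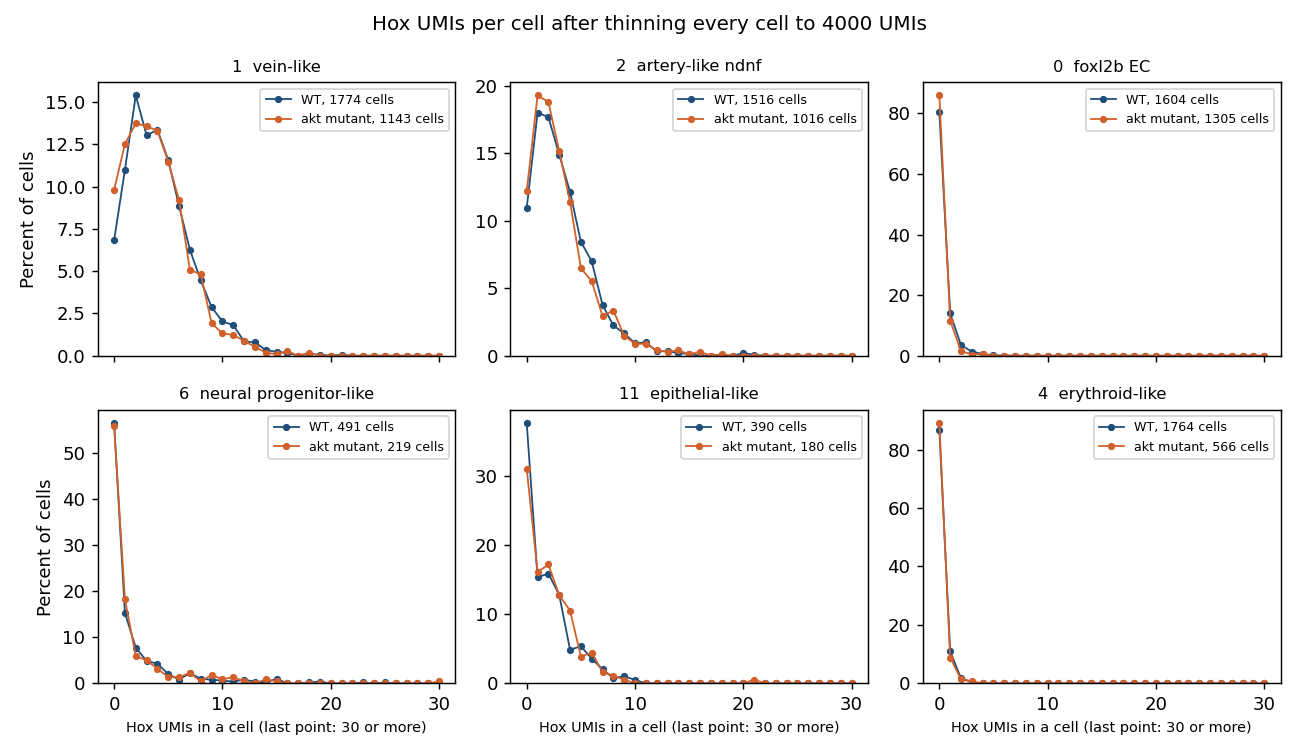
Percent of cells by the number of Hox UMIs they hold after every cell is thinned to 4000 UMIs, in 6 clusters, with WT in blue and akt mutant in orange. Clusters 1 and 2 form a single broad peak, cluster 0 resembles the erythroid-like cells, and the neural progenitor-like cluster joins 56.4% of WT cells with no Hox UMI to a long tail.

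Among paralog groups the vein-like cluster was the more posterior. The mean paralog number, weighted by UMIs, was 8.07 in WT and 7.98 in the mutant in cluster 1, 8.19 and 7.97 in cluster 12, and 7.08 and 7.21 in cluster 2, with standard errors from counting between 0.0226 and 0.0459. Posterior genes gave 58.2% and 55.9% of the Hox UMIs of cluster 1 against 42.1% and 43.8% of those of cluster 2. Cluster 0, whose Hox UMIs were few, had a mean of 5.14 and 5.56. The genes that led each cluster also differed: hoxa11b (130 and 111 CPM), hoxb7a (104 and 92.2 CPM) and hoxc3a (64.7 and 78.3 CPM) in cluster 1, and hoxc9a (85.0 and 86.4 CPM), hoxc8a (83.1 and 74.9 CPM) and hoxb3a (71.5 and 60.4 CPM) in cluster 2. In cluster 12 the leading genes were hoxa11b, hoxb7a and hoxb9a.

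**Figure D3:**
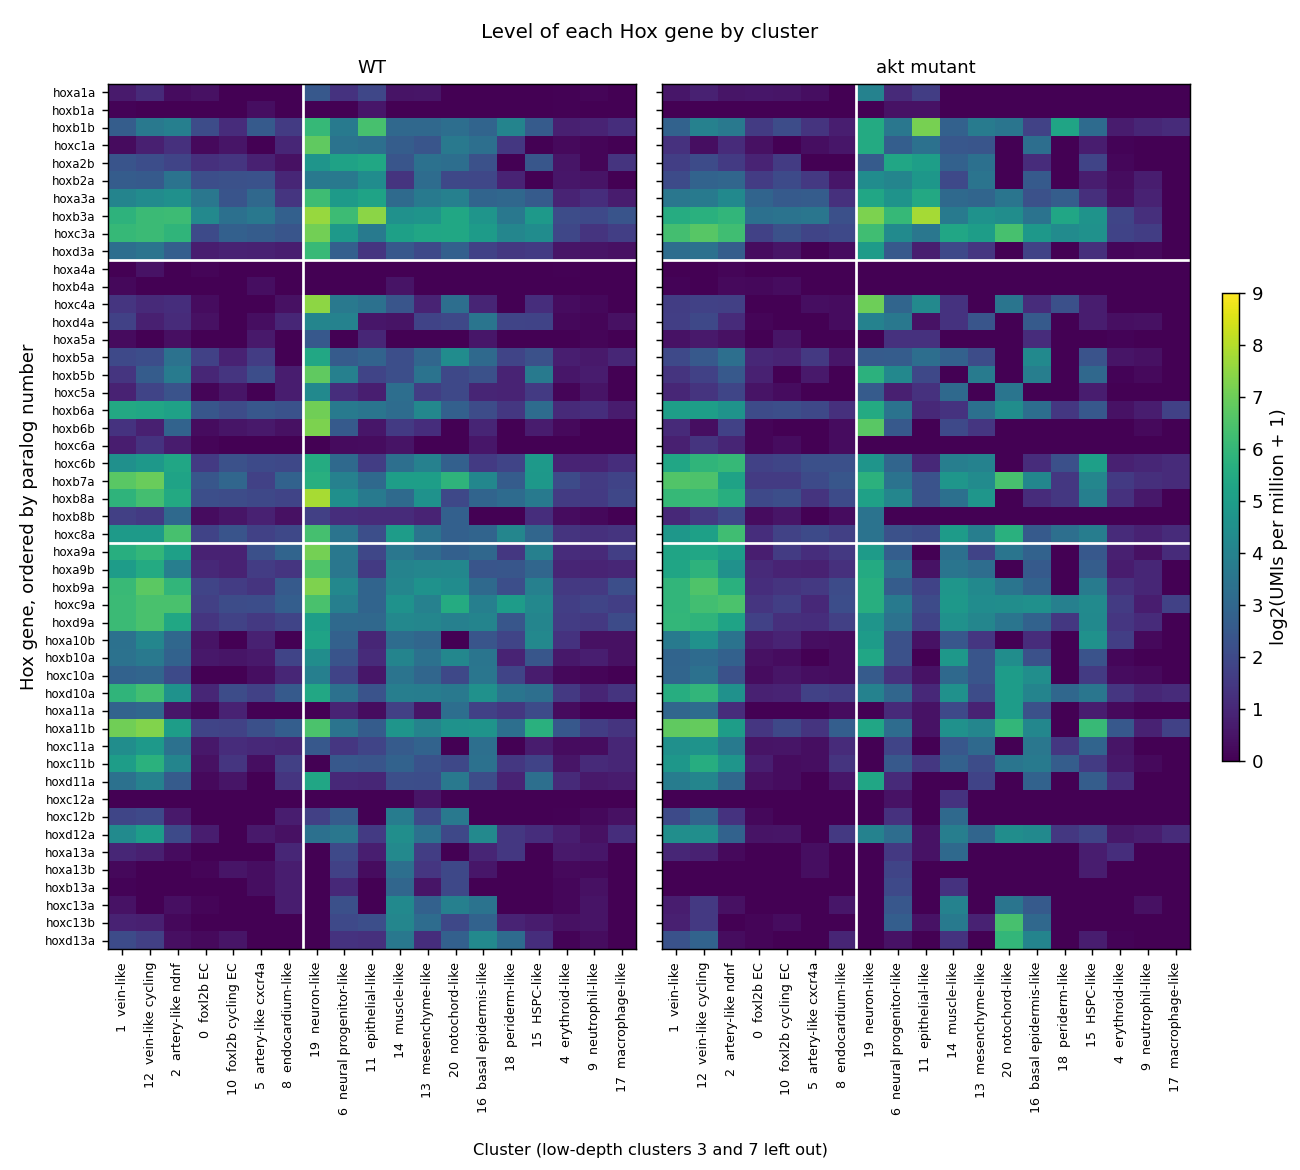
Level of each of the 49 Hox genes, as log2(CPM + 1), in 19 clusters of the WT library (left) and the akt mutant library (right). Genes run from paralog group 1 at the top to 13 at the bottom, with white lines between anterior, central and posterior genes and between endothelial and other clusters; the vein-like and ndnf-led artery-like clusters are filled down to group 12, and groups 1 to 3 stand out in the epithelial-like cluster.

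The ratio of cluster 1 to cluster 2 was then taken gene by gene within each library, for the 30 Hox genes with at least 50 UMIs over both clusters in both libraries. The posterior sum was higher in the vein-like cluster, by 0.81 on the log2 scale in WT (0.76 to 0.87) and 0.60 in the mutant (0.55 to 0.66), while the anterior sum was lower, at -0.21 and -0.20. At least a 1.5-fold difference in both libraries was found for 18 genes, 11 higher and 7 lower in the vein-like cluster, and no gene changed sign between libraries. In each library on its own, 14 of the 30 genes were higher and 7 lower in WT, and 11 and 8 in the mutant. Over all genes measured, 20.6% were higher and 13.8% lower by this fold in WT, and 18.9% and 17.3% in the mutant. Past the fold in both libraries, of 15 posterior genes 9 were higher and none was lower, of 8 central genes 1 was higher and 5 were lower, and of 7 anterior genes 1 was higher and 2 were lower. The log2 ratios of the 30 genes in WT and in the mutant had a Pearson correlation of 0.965 and a Spearman correlation of 0.943 across genes, which are not independent and share their clustering.

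The 3 posterior genes with the largest ratios in both libraries were hoxa11a, hoxd12a and hoxa11b. Hoxa11a, at 6.29 CPM in cluster 1 and 0.454 CPM in cluster 2 of WT and 6.75 and 1.22 CPM in the mutant, had log2 ratios of 3.79 and 2.46. Hoxd12a stood at 18.6 and 3.03 CPM in WT and 20.8 and 6.12 CPM in the mutant, with log2 ratios of 2.62 and 1.76. Hoxa11b stood at 130 and 31.5 CPM in WT and 111 and 31.2 CPM in the mutant, with log2 ratios of 2.05 and 1.83. In mouse, the group 11 genes pattern the forearm and kidney and the group 12 and 13 genes of HoxD the digits. Hoxd10a (1.35 and 1.08), hoxc11a (1.16 and 0.86), hoxa9b (1.18 and 0.78), hoxc10a (1.02 and 0.85), hoxd11a (0.89 and 0.89) and hoxd9a (0.80 and 0.75) were also past the fold in both libraries on the log2 scale. Hoxc9a, the highest gene of cluster 2, was the exception in direction among posterior genes, at -0.31 and -0.52, and hoxc11b was higher in WT (0.95) with little difference in the mutant (0.06). Hoxa9a (0.52 and 0.27), hoxb9a (0.19 and 0.21), hoxa10b (0.37 and 0.29) and hoxb10a (0.65 and 0.12) did not pass the fold in both.

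The genes lower in the vein-like cluster were mostly central HoxB and HoxC genes. Hoxb5b, which in zebrafish limits the number of atrial cells in the heart, was at 1.61 CPM in cluster 1 and 12.4 CPM in cluster 2 of WT and at 1.56 and 4.65 CPM in the mutant, giving log2 ratios of -2.95 and -1.58. Hoxc8a had log2 ratios of -1.51 in both libraries, hoxb5a of -1.64 and -1.56, hoxb8b of -1.72 and -1.501, and hoxc6b of -0.87 and -0.71. Among the anterior genes, hoxb1b, which in zebrafish acts in hindbrain segmentation, had -1.40 and -0.88, and hoxb2a -0.92 and -1.12. Hoxb7a was the exception among the central genes, at 1.51 and 1.40 higher in the vein-like cluster, while hoxb6a (0.27 and 0.43) and hoxb8a (0.40 and 0.38) did not pass the fold. Hoxb3a (-0.38 and -0.39) and hoxc3a (0.15 and 0.08) differed little, hoxa3a (-0.48 and -0.74) and hoxa2b (0.65 and 0.20) were past the fold in 1 library each, and hoxd3a was the higher anterior gene at 0.66 and 0.67.

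By cluster letter, the HoxA and HoxD sums were higher in the vein-like cluster and the HoxC sum was lower. The HoxA sum had log2 ratios of 1.14 in WT and 0.92 in the mutant, the HoxD sum 1.13 and 0.996, the HoxB sum 0.19 and 0.27 and the HoxC sum -0.28 and -0.38. All 5 measured HoxD genes were higher past the fold in both libraries, as were 3 of 7 HoxA genes, while of 11 HoxB genes 1 was higher and 5 were lower. Of 7 HoxC genes 2 were higher and 2 lower, with a median log2 ratio of 0.15 and 0.064, so the lower HoxC sum rested on abundant genes such as hoxc8a. The HoxD cluster is mostly posterior, so letter and paralog number are not independent here. The neuron marker list (7 genes) summed to 52.7 CPM in WT and 38.4 CPM in the mutant in cluster 1 and to 288 and 205 CPM in cluster 2. That difference lay in tubb5, at 281 CPM in cluster 2 of WT, since the other 6 genes of the list were each at or below 3.79 CPM there. Erythroid markers were at like levels in both clusters, at 2847 and 2685 CPM in WT and 1191 and 1133 CPM in the mutant.

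**Figure D4:**
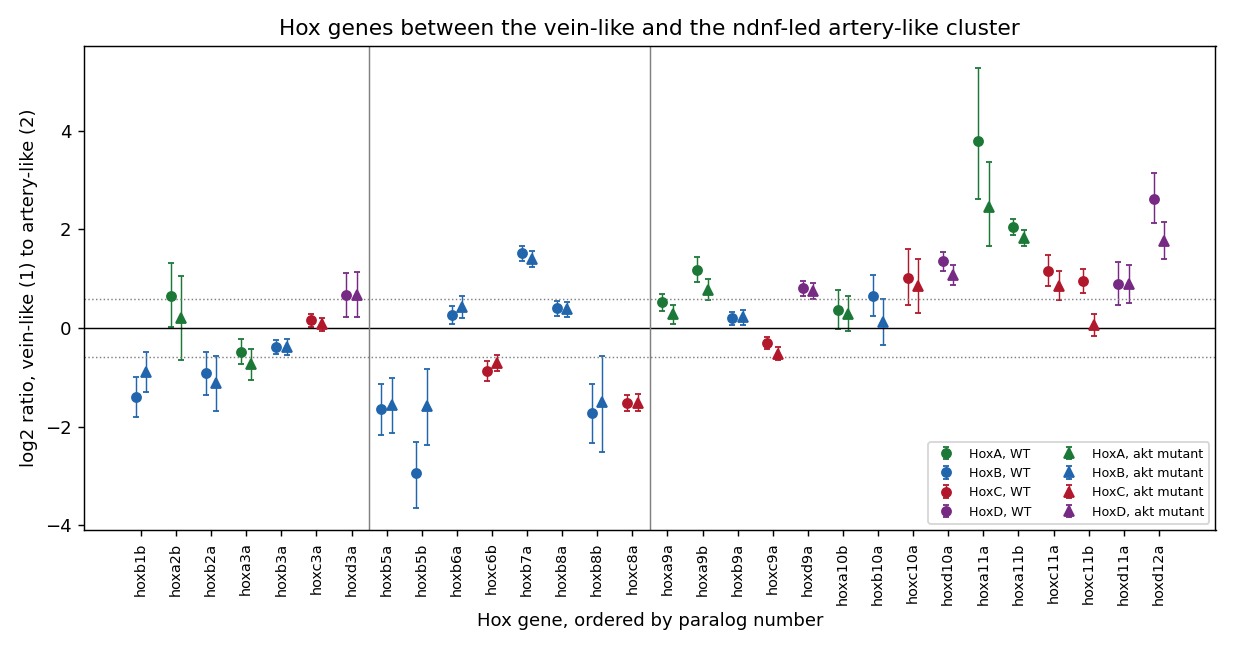
Log2 ratio of the level in vein-like cluster 1 to that in artery-like cluster 2 for 30 Hox genes in order of paralog number, coloured by cluster letter, with circles for WT and triangles for akt mutant. Bars are 95% intervals for counting error, dotted lines mark 1.5-fold, and vertical lines divide anterior, central and posterior genes; 14 of the 15 posterior genes lie above 0 in both libraries.

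Cells with posterior Hox transcripts did not lack anterior ones. In cluster 1 of WT, the 1193 cells with a UMI of paralog groups 11 to 13 held 446 CPM of groups 9 to 10 and 179 CPM of groups 1 to 3, against 246 and 127 CPM in the 877 cells without one. In cluster 2 of WT the values were 483 and 211 CPM against 209 and 177 CPM. The mutant showed the same order, at 399 and 177 against 181 and 115 CPM in cluster 1 and 510 and 215 against 176 and 166 CPM in cluster 2. The cells with such a UMI were also deeper (a median of 7169 against 5954 UMIs in cluster 1 of WT), and the part of depth in this was not tested. Of the group 13 genes, hoxd13a reached 3.14 and 3.86 CPM in cluster 1, and the other 5 stayed below 1 CPM there.

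The vein-like cells with cell cycle genes (cluster 12) carried a similar code. Of 28 measured genes, 6 were higher than in cluster 1 in WT and 7 in the mutant, and none was lower in either. Of all genes, 12.2% were higher and 7.46% lower in WT and 14.9% and 4.98% in the mutant. The log2 ratios of the 28 genes in WT and in the mutant had a Pearson correlation of 0.23 and a Spearman correlation of 0.11, and 5 genes changed sign. The 4 genes higher in both libraries were hoxb1b (1.14 and 1.24 on the log2 scale), hoxa10b (0.83 and 0.91), hoxc11b (0.74 and 0.87) and hoxb9a (0.62 and 0.61).

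When artery and vein cells were instead taken across all endothelial clusters by marker UMIs (dll4, efnb2a and notch3 against stab2, dab2 and lyve1b), the direction of the sum turned. The vein to artery log2 ratio of the Hox sum was -0.25 in WT and -0.60 in the mutant. Of these vein cells, 41.5% in WT and 48.1% in the mutant belonged to the low-Hox clusters 0, 5, 8 and 10, against 20.1% and 23.7% of the artery cells. With 2 of 3 markers required in place of 3 the ratios were 0.24 and 0.05, and with cells of clusters 1 and 2 alone 0.12 and -0.07. Of 29 measured genes, 2 were higher and 6 lower past the fold in both libraries. In each library on its own, 6 were higher and 7 lower in WT, and 2 and 15 in the mutant, where 19.1% of all genes were higher and 10.8% lower in WT and 14.6% and 13.2% in the mutant. The HoxC sum was lower in vein cells of both libraries, at -0.92 and -1.17. The anterior sum was lower in them as well, at -0.61 in WT and -0.66 in the mutant. The posterior, HoxA and HoxD leans of the cluster contrast were not kept in the mutant. The posterior sum was at 0.12 in WT and -0.47 in the mutant, the HoxA sum at 0.52 and -0.06 and the HoxD sum at 0.41 and -0.30. The 8 genes with opposite signs in the libraries were all posterior.

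Between genotypes the Hox sum of endothelial cells was 582 CPM in WT and 519 CPM in the mutant, a log2 ratio of -0.17 (-0.19 to -0.14), but it turned to 0.10 when endothelial cells were taken as any cell with a UMI of kdrl or cdh5. The anterior, central and posterior sums had like ratios, at -0.16, -0.14 and -0.18, and the mean paralog number was 7.60 in both libraries. Within clusters 1 and 2 the difference was smaller. It was -0.08 in cluster 1, which TMM scaling moved to 0.03. In cluster 2 it was 0.01, which thinning to 1000 or 4000 UMIs moved to -0.07. TMM scaling moved the cluster 2 ratio up to 0.05, and removal of the highest Scrublet scores moved it to 0.06. The larger relative differences were in the low clusters, such as cluster 0 with 76.4 and 50.8 CPM, and the erythroid-like level itself was lower in the mutant, at 32.4 against 40.4 CPM. The mix of clusters among endothelial cells differed between the libraries, as given above, and its part in the endothelial ratio was not tested.

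Of 38 Hox genes with at least 50 UMIs in endothelial cells, 1 was higher by at least 1.5-fold in the mutant and 5 were lower, where 6.31% of all 14540 genes measured were higher and 12.4% lower. Both counts lie near that background. Hoxc6b was the gene that was higher, at 18.7 CPM in WT and 29.1 CPM in the mutant (0.64, 0.53 to 0.76). The difference was present in cluster 1, at 21.7 and 39.2 CPM, in cluster 2, at 39.6 and 64.2 CPM, and in artery cells, at 34.9 and 59.9 CPM, but no Hox gene was higher past the fold in endothelial cells thinned to 4000 UMIs. The 5 lower genes were hoxb5b (4.55 and 1.78 CPM, -1.35), hoxb8b (2.72 and 1.13 CPM, -1.27), hoxb6b (2.14 and 0.971 CPM, -1.14), hoxa2b (2.40 and 1.501 CPM, -0.68) and hoxb2a (5.50 and 3.60 CPM, -0.61). The median log2 ratio of the 38 genes was -0.14, against -0.07 for all genes.

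Of the lower genes, 3 (hoxb5b, hoxb6b and hoxb8b) belong to the b copy of the HoxB cluster, whose remaining member hoxb1b was at 6.99 and 6.55 CPM. They had enough UMIs for a ratio in the artery-like cluster 2, where hoxb5b was at 12.4 and 4.65 CPM (-1.42), hoxb6b at 6.21 and 2.37 CPM (-1.39) and hoxb8b at 7.34 and 2.94 CPM (-1.32). In the vein-like cluster all 3 were at or below 2.23 CPM in each library and had fewer than 50 UMIs, with hoxb8b at 2.23 and 1.04 CPM, and in vein cells taken by markers hoxb8b and hoxb5b were lower too, as given below. Neurons held hoxb5b and hoxb6b at higher levels, at 109 and 150 CPM in WT. In cluster 2 cells with no UMI of elavl3, elavl4, stmn1b, gng3, snap25a or neurod4 (1749 of 1833 WT and 1176 of 1223 mutant cells) the log2 ratios were -1.34, -1.36 and -1.23. Such cells can still carry free neuronal RNA, whose part was not tested. Hoxb5b and hoxb6b overlap hoxb1b in the annotation, and a different split of shared reads between libraries was not tested.

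**Figure D5:**
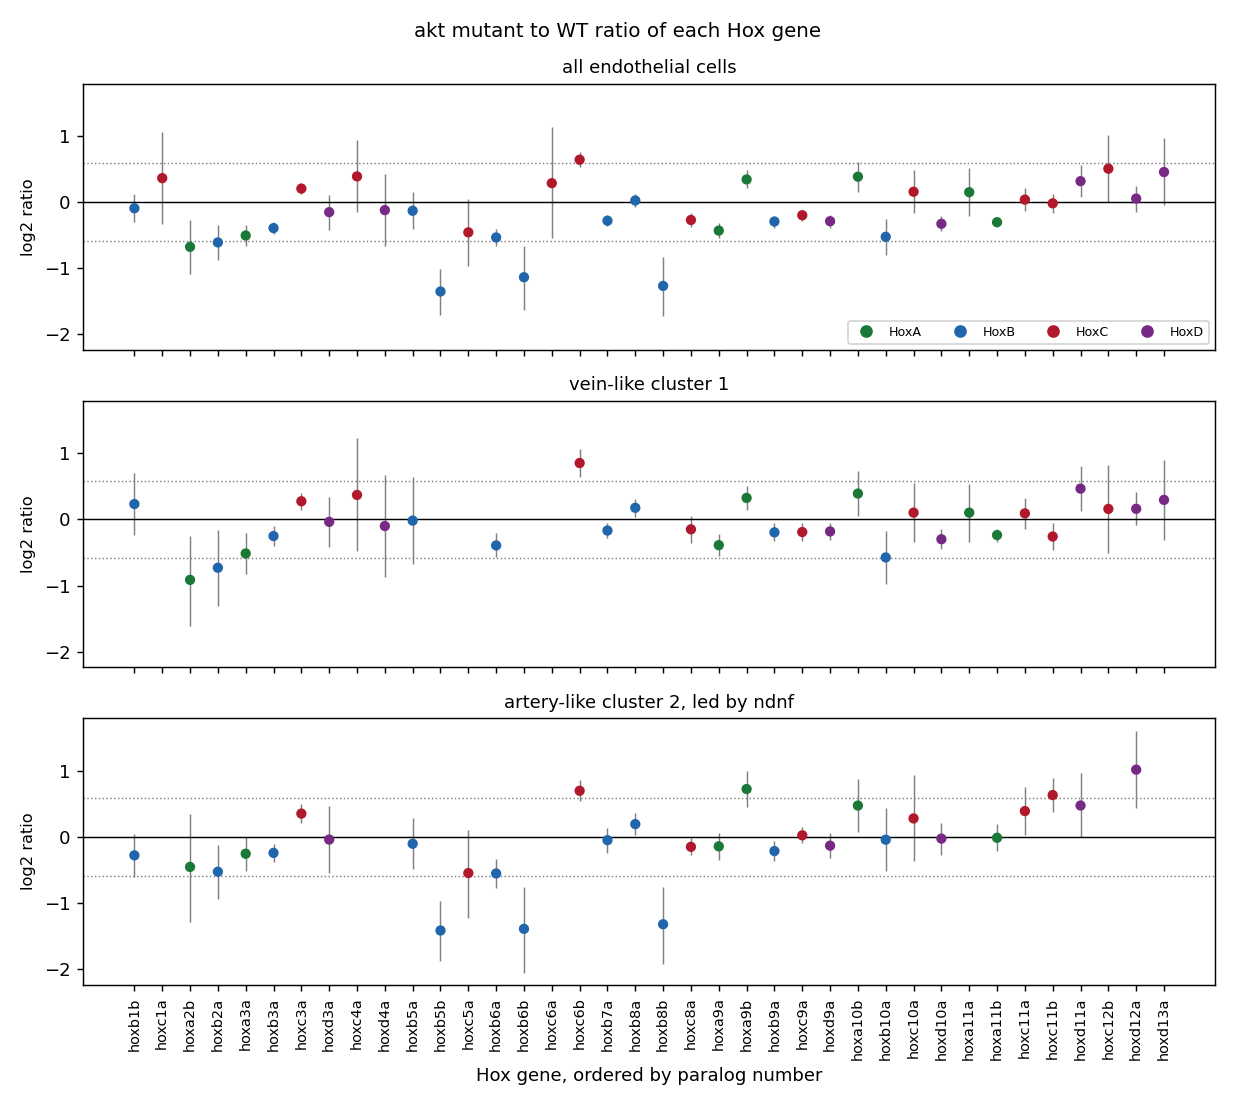
Log2 ratio of akt mutant to WT for each measured Hox gene in all endothelial cells (top), vein-like cluster 1 (middle) and artery-like cluster 2 (bottom), in order of paralog number and coloured by cluster letter. Bars are 95% intervals for counting error and dotted lines mark 1.5-fold; hoxc6b lies above the upper line in all 3 panels, and hoxb5b, hoxb6b and hoxb8b lie between -1.42 and -1.32 in cluster 2.

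In cluster 1, 1 of 32 measured genes was higher in the mutant (hoxc6b) and 2 were lower (hoxa2b at -0.91 and hoxb2a at -0.73), where 4.86% of all genes were higher and 12.9% lower. In cluster 2, 4 of 31 were higher and 3 lower, where 6.47% were higher and 8.9% lower. Besides hoxc6b these were hoxd12a (3.03 and 6.12 CPM, 1.02), hoxa9b (13.6 and 22.4 CPM, 0.72) and hoxc11b (16.1 and 25.0 CPM, 0.63). Hoxd12a, hoxc11b and hoxa9b were among the genes that separated the vein-like from the artery-like cluster in WT, and their ratio between these clusters was smaller in the mutant, as given above. That is not a separate result, since these genes were picked for a higher mutant level in cluster 2, the denominator of the ratio. Whether the difference between the libraries' ratios exceeds the spread between embryos could not be tested with 1 library each.

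In artery cells taken by marker UMIs (487 and 401 cells), 6 of 25 measured genes were higher and 3 lower, where 7.51% of all genes were higher and 6.71% lower. The 6 were hoxd12a (2.97 and 8.67 CPM, 1.54), hoxd11a (3.96 and 8.88 CPM, 1.16), hoxc6b (0.78), hoxa10b (7.19 and 12.2 CPM, 0.76), hoxa11b (23.5 and 39.6 CPM, 0.75) and hoxc11b (16.1 and 25.8 CPM, 0.68), of which all but hoxc6b are posterior. The lower genes were hoxb5b (-1.23), hoxb1b (15.4 and 8.46 CPM, -0.86) and hoxb3a (71.4 and 46.0 CPM, -0.63). The posterior sum of artery cells was 320 CPM in WT and 369 CPM in the mutant, at 0.21 (0.10 to 0.31), but it turned to -0.46 when 2 of 3 markers defined the class and to -0.04 and -0.03 when cells were thinned to 1000 and 4000 UMIs. Cells of the vein-like clusters 1 and 12 made up 3.29% and 0.616% of WT artery cells and 4.49% and 3.49% of mutant artery cells; with artery cells of clusters 1 and 2 alone the posterior ratio was 0.23 (0.12 to 0.34). The part of cluster 1 cells was not tested. In vein cells (3100 and 2132 cells) none of 33 genes was higher and 6 were lower, where 5.62% and 12.1% of all genes were: hoxb8b (-1.76), hoxb2a (-0.79), hoxb5b (-0.78), hoxb10a (-0.71), hoxb6a (-0.66) and hoxa9a (-0.64). The Hox sum of vein cells was 631 CPM in WT and 498 CPM in the mutant, and as given above the share of low-Hox clusters among them was larger in the mutant.

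The remaining endothelial members with at least 100 UMIs differed less between genotypes. Hoxa11b, the highest gene of endothelial cells, was at 53.0 and 42.9 CPM (-0.30), hoxc9a at 45.9 and 40.0 CPM, hoxb7a at 45.5 and 37.5 CPM, hoxb3a at 42.8 and 32.6 CPM and hoxb9a at 39.9 and 32.5 CPM. Hoxc3a was at 37.7 and 43.4 CPM, hoxd9a at 34.6 and 28.3 CPM, hoxb8a at 31.8 and 32.3 CPM, hoxc8a at 31.8 and 26.3 CPM, hoxd10a at 26.6 and 21.2 CPM, hoxa9a at 25.8 and 19.1 CPM and hoxb6a at 24.1 and 16.7 CPM. These 12 were the most abundant in WT, and all were within 1.5-fold of WT in the mutant. Next in order came hoxc11b (15.6 and 15.3 CPM), hoxa9b (14.6 and 18.5 CPM), hoxa3a (14.2 and 10.0 CPM), hoxc11a (9.64 and 9.89 CPM), hoxd12a (7.73 and 8.02 CPM), hoxa10b (5.35 and 6.98 CPM), hoxb10a (5.01 and 3.48 CPM), hoxd11a (4.73 and 5.88 CPM), hoxd3a (4.57 and 4.12 CPM) and hoxb5a (4.101 and 3.74 CPM). Lower were hoxc10a, hoxa11a, hoxc5a, hoxd4a, hoxd13a, hoxc12b and hoxc4a, at 0.945 to 3.18 CPM in either library, hoxc1a (0.605 and 0.777 CPM) and hoxc6a (0.435 and 0.530 CPM) were lower still, and the 11 members with fewer than 50 UMIs stayed at or below 0.416 CPM. The latter included every group 13 gene but hoxd13a.

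The cofactors and inputs of the Hox system differed in how they followed the division of the endothelium. Pbx4, a partner of Hox proteins, was the highest of the 30 genes listed, at 77.5 CPM in WT and 91.6 CPM in the mutant, and it was at 81.2 CPM in cluster 1, 81.5 CPM in cluster 2 and 76.0 CPM in cluster 0 of WT. Meis1b, of the other partner family, was at 32.0 and 36.8 CPM in cluster 1, 108 and 131 CPM in cluster 2 and 19.9 and 11.6 CPM in cluster 0. Cdx4, a caudal factor upstream of posterior Hox genes, was at 13.6 and 17.2 CPM in cluster 1 and 2.01 and 1.71 CPM in cluster 0. Cyp26b1, which degrades retinoic acid, was at 45.7 and 36.6 CPM in cluster 2 and 1.77 and 0.855 CPM in cluster 0. In the high-Hox cluster 1 cyp26b1 was at 9.57 and 8.38 CPM, well below cluster 2. The low-Hox cluster 5 held meis1b at 33.0 and 38.6 CPM, near its level in the high-Hox cluster 1. It held cdx4 at 5.15 and 2.57 CPM and cyp26b1 at 2.32 CPM in each library. Of 24 measured genes of the list, 1 was higher and 1 lower past the fold in mutant endothelial cells, no larger a share than the 6.31% and 12.4% of all genes: aldh1a2, which makes retinoic acid, at 1.76 and 3.99 CPM (1.18), and pbx3b at 2.40 and 0.318 CPM (-2.92).

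Outside the endothelium the Hox code differed by cell type. Neuron-like cells (77 and 28 cells) had the highest sum, at 2483 CPM in WT and 1288 CPM in the mutant, led by hoxb3a, hoxb8a and hoxc4a. Of their 10 measured genes 7 were lower and none was higher in the mutant, where 10.5% of all genes were lower and 7.72% higher, with hoxb8a at 223 and 34.6 CPM and hoxa9a at 137 and 29.6 CPM. The neuron-like cells held 1090 Hox UMIs in WT and 261 in the mutant. The measured genes thus met the minimum of 50 UMIs mainly through WT, a choice that favours lower calls. Regional markers differed between these cells too, with pax2a at 273 and 24.7 CPM, gbx2 at 13.7 and 123 CPM and mafba at 25.1 and 133 CPM, and the part of axial make-up in the Hox difference was not tested. After thinning to 4000 UMIs only 48 and 17 of these cells remained, with a variance of Hox UMIs 15.2 and 5.95 times the mean. Of them, 19 in WT and 6 in the mutant held no Hox UMI, and 24 and 6 held 6 or more. The neural progenitor-like cells (452 and 381 CPM) were led by hoxb3a, hoxa2b and hoxa3a. Their Hox UMIs were spread unevenly, with none of 4000 UMIs in 56.4% of WT and 55.7% of mutant cells and 6 or more in 9.37% and 10.5%. The cells with none held the forebrain factor gene six3b at 201 and 173 CPM and the midbrain-hindbrain boundary gene en2b at 95.7 and 50.4 CPM. In the cells with 6 or more, six3b was at 2.81 CPM in WT (1 UMI) and 0 in the mutant, and egr2b, which marks hindbrain rhombomeres, was at 30.9 and 76.2 CPM against 23.1 and 39.4 CPM in the cells with none. Over the whole cluster egr2b was at 59.2 and 99.5 CPM, above both, so that it was highest in the cells left out of these classes.

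The epithelial-like cells (cluster 11, 464 and 212 cells), with epcam and foxa2, had the most anterior code. Their mean paralog number was 3.64 in WT and 2.69 in the mutant, and anterior genes gave 77.4% and 89.1% of their Hox UMIs. Hoxb3a was at 173 and 221 CPM, hoxb1b at 82.4 and 141 CPM and hoxa3a at 35.9 and 41.8 CPM. Their posterior sum was 52.3 CPM in WT and 13.8 CPM in the mutant, a log2 ratio of -1.92. The pronephros marker list (5 genes) differed with it, at 319 CPM in WT and 70.2 CPM in the mutant, with cdh17 at 108 and 17.02 CPM. In the cells with fewer than 2 of cdh17, pax8, hnf1ba and pax2a (444 and 208 cells) the posterior sum was 38.9 and 12.2 CPM, and in the 20 and 4 cells with more it was 271 and 121 CPM. The part of pronephric cells in the rest of the difference was not tested.

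The other clusters lay between. In WT the low-depth cluster 7 and the epithelial-like, muscle-like, notochord-like, unnamed low-depth (cluster 3) and neural progenitor-like cells had Hox sums from 452 to 533 CPM, and neighbours in that order had overlapping intervals. Mesenchyme-like cells followed at 402 and 319 CPM, led by hoxc3a, hoxb7a and hoxb8a, and basal epidermis-like cells at 341 and 314 CPM, led by hoxc3a, hoxa11b and hoxb3a. Periderm-like cells were at 182 and 154 CPM, led by hoxc9a, hoxb1b and hoxb3a, and notochord-like cells (51 and 19 cells) at 474 and 707 CPM, led by hoxb7a, hoxc3a and hoxc9a. Muscle-like cells, led by hoxc3a, hoxb7a and hoxc8a, had the highest mean paralog number in WT, at 8.48, and held group 13 genes that were low in endothelial cells: hoxc13a at 18.4 and 14.9 CPM, hoxa13a at 18.002 and 7.44 CPM and hoxc13b at 16.5 and 11.9 CPM. The cells with markers of hematopoietic stem and progenitor cells (338 and 336 CPM) were led by hoxa11b (51.7 and 65.4 CPM), hoxc6b (27.4 and 32.7 CPM) and hoxb3a (28.0 and 23.5 CPM). Neutrophil-like cells (33.3 and 18.6 CPM) and macrophage-like cells (39.6 and 15.2 CPM) were at or below the erythroid-like level, with hoxb3a the highest gene of both in WT.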

How the data were processed

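WT and akt mutant kdrl:mCherry+ cells were measured by droplet 3′ sequencing, 1 library per genotype. The deposited values are whole UMI counts per gene and cell, made by the authors with Cell Ranger 5.0.0 per the labels; the reference build is not given in the sources used here. Cells with at least 200 detected genes were clustered in Seurat 5.3.0 (R 4.3.3; 2000 variable genes less 8 Hox genes, 30 components, resolution 0.6), with totals over all genes and no doublets removed. Clusters were named from marker lists.

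UMIs were summed per class (Python 3.11.15, scipy 1.17.1); intervals are exact Poisson for levels, Clopper-Pearson for shares and exact binomial for ratios, and cover counting error only. With 1 library per genotype there was no test. Past the fold meant at least 1.5-fold with at least 50 UMIs over both sides. Ratios were checked on simulated counts with counting error only, which hold no spread between embryos or libraries. For alternatives, edgeR 4.0.16 gave TMM factors and Scrublet (scanpy 1.11.5) scored doublets.

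Members, gene lists and comparisons were chosen with earlier results of these data known. Named with values were Hox genes with at least 100 endothelial UMIs, the 3 highest of each cell class, those past the fold in endothelial, artery or vein cells, and listed cofactors past the fold or highest. Group 13 genes, egr2b, six3b, en2b, meis1b, cdx4 and cyp26b1 were named after their values were seen.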

Additional observations from a re-analysis of the deposited data

Results flagged for a closer look

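In 4 results the akt mutant to WT log2 ratio had opposite signs in artery and vein cells taken by marker UMIs, each class being 1 library per genotype, and the difference was not tested. The posterior Hox sum was at 0.207 in artery cells and -0.38 in vein cells, but with 2 of 3 markers it was at -0.46 and -0.44, of the same sign, and with cells of clusters 1 and 2 alone at 0.23 and -0.15. Hoxa11b was at 0.752 and -0.46, hoxc11b at 0.68 and -0.35, and hoxd12a at 1.54 and -0.35. Within the clusters the posterior sum was at 0.07 in artery-like cluster 2 and -0.14 in vein-like cluster 1.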

How the results depend on the processing

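No paired analysis was possible because the labels give no replicate numbers shared by the groups, and leaving out a replicate was not possible with 1 library each. The vein-like to artery-like posterior ratio stayed above 0 in all 12 alternatives in each library (0.76 to 0.89 in WT, 0.59 to 0.84 in the mutant), with 0.89 (WT) and 0.84 (mutant) for cells thinned to 1000 UMIs, 0.72 thinned to 4000 UMIs (mutant) and 0.66 with 15 components (mutant). The foxl2b-led to vein-like Hox ratio, -3.74 in WT and -4.24 in the mutant, moved to -4.29 and -4.76 at resolution 0.8, -4.52 and -4.94 with at least 500 genes, -4.50 and -5.09 with the erythroid-like level subtracted, -3.91 and -4.45 thinned to 4000 UMIs, -3.88 in WT thinned to 1000 UMIs, and in the mutant to -4.05 with 15 components and -4.39 without the highest Scrublet scores, a step unequal between libraries (147 WT cells by the automatic threshold, 785 mutant cells as the top 8% since that threshold marked 0).

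The mutant to WT Hox ratio of endothelial cells was 0.10 in cells with a UMI of kdrl or cdh5 (anterior 0.091, central 0.11, posterior 0.094), -0.074 with TMM scaling, -0.12 thinned to 1000 UMIs and -0.31 thinned to 4000 UMIs. In the vein-like cluster it was 0.030 with TMM scaling. In the artery-like cluster 2 it was 0.052 with TMM scaling, 0.056 without the highest Scrublet scores, -0.074 thinned to 1000 UMIs and -0.065 thinned to 4000 UMIs. The posterior ratio of artery cells was -0.46 with 2 of 3 markers, -0.035 thinned to 1000 and -0.025 thinned to 4000 UMIs. The vein to artery Hox ratio was 0.24 and 0.050 with 2 of 3 markers, and 0.12 and -0.069 in clusters 1 and 2 alone. In the mutant it was -0.51 with TMM scaling and also -0.51 thinned to 4000 UMIs, and -0.40 thinned to 1000 UMIs. The count of higher Hox genes, 1, was 2 with kdrl or cdh5, with TMM scaling, thinned to 1000 UMIs and at a minimum of 20 UMIs, 3 with the erythroid-like level subtracted, and 0 thinned to 4000 UMIs or at 2-fold. The count of lower genes, 5, was 3 thinned to 1000 UMIs, with that level subtracted and at 2-fold. It was 4 with 15 components, with at least 500 genes, with TMM scaling and without the highest Scrublet scores. It rose to 7 in cells with kdrl or cdh5 and in cells thinned to 4000 UMIs. The causes were not tested. Thinning to 4000 UMIs, the restriction to clusters 1 and 2 and the cells without neuron markers were chosen after seeing the data. Genes with few UMIs, such as those of paralog group 13 in endothelial cells, were limited by depth.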
